A study of Rattus norvegicus with 44 samples.

Results

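Cytosolic ribosomal proteins are the protein subunits of the ribosome that translates nuclear messenger RNA. They were followed here in the dentate gyrus, the hippocampal subregion of the granule cells, of male Fischer 344 rats. A gene was a member if its symbol starts with Rpl, Rps or Rplp and a number or the letter a, if it is not an S6 kinase gene, and if its mean normalized value over the 44 rats was at least 5. Of 18347 gene identifiers, 91 matched the symbols and 89 passed the minimum, of which 53 belong to the large subunit and 35 to the small subunit. The remaining member, Rps19bp1, encodes a protein that binds a small subunit protein and is not a subunit itself. The 2 matching genes under the minimum were Rpl38 (mean 0.275) and Rpl13 (mean 0.983). The members carry 82 distinct symbols, and 69 of the 79 standard subunit genes had a member. Rpl8, Rpl22, Rps14, Rps19, Rps20 and Rps26 had no member, nor had Fau, whose symbol the rule does not match.

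The study asked how 2 senolytic treatments, meant to remove senescent cells, bear on brain aging. Each rat gave 1 library. YNG rats (n = 10) were 6 months old, and the deposited sample attributes list them under vehicle. The older rats started treatment at 12 months and were about 18 months old at tissue collection. They received vehicle (AV, n = 12), 12 mg/kg of ABT-263, an inhibitor of BCL2 family proteins (AA, n = 11), or 1.2 mg/kg of dasatinib, a tyrosine kinase inhibitor, with 12 mg/kg of the flavonoid quercetin (ADQ, n = 11), by gavage for 5 days in each of 8 cycles, with a final round after the behavioral tests. All rats were of 1 sex and 1 strain, and the tissue was a whole dissected subregion, so fewer cells of a type and less RNA per cell cannot be told apart. Of the granule cell markers, Prox1, Dsp, C1ql2 and Calb1 had means of 771 to 5952, while Tdo2 had a mean of 0.661.

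Ribosomal protein genes are transcribed at high rates, and their products are made in nearly equal amounts because each ribosome holds 1 copy of most subunits. Their messages start with a run of pyrimidines at the first transcribed base, the terminal oligopyrimidine tract, through which the kinase mTOR and the RNA-binding protein Larp1 set how well they are translated. Neurons carry ribosomes into dendrites, where local translation takes part in synaptic plasticity. A transcript level says nothing about how much of the protein was made.

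The start regions of 6 members are shown because they hold or lack 2 short pyrimidine motifs and belong to genes that moved and genes that did not. The sequences are RefSeq's, read 5′ to 3′ on the sense strand of build GRCr8, from 10 bases before the annotated start to 20 after it, and capitals mark CTCTT or CTTTC wherever they stand in the window. The capitals do not mark the tract itself: in Rps24 they lie before the annotated start, and pyrimidine runs at the start of Rps24 and Rpl3 hold neither motif and are unmarked. The authors' values were made on another build, rn6. Rpl34 lies at chr2:221962264-221962293 on the minus strand, Rps24 at chr16:96507-96536 on the plus strand and Rps27 at chr2:177964587-177964616 on the minus strand. Rps18 lies at chr20:4933735-4933764 on the plus strand, Rpl3 at chr7:113507971-113508000 on the minus strand and Rps27l at chr8:76443648-76443677 on the plus strand.
Rpl34: tccttttcCTCTTccggggacggtgcttag
Rps24: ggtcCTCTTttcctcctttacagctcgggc
Rps27: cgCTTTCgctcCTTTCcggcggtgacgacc
Rps18: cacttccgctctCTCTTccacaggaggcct
Rpl3: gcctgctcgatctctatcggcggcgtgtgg
Rps27l: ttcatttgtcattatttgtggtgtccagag

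RefSeq promoters were matched to 62 of the 82 symbols. Within that window, CTCTT stood in 19 of 62 members (30.6%) against 2.91% of 10139 other genes tested, and CTTTC stood in 22 of 62 (35.5%) against 2.998%. The letters CTCTTTC hold both motifs, so they overlap, and 31 of 62 members (50%) held at least 1 of them against 5.52% of the other genes. CCGGAAG, the core of the sites of ETS factors, was searched on both strands from 250 bases before to 50 after the start and was found in 30.6% of the members and 16.3% of the others. AAGATGGC, the core of the sites of YY1, was found in 8.06% of the members and 5.31% of the others. Rpl3 and Rps27l held neither pyrimidine motif, and one of them moved while the other did not. Rpl3 was named for a small p and Rps27l for a large one, so this contrast came with the choice and says nothing about the motif.

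The median share of a library on the 89 members was lower in each older group than in YNG, a description with no test. In YNG the lowest rat had 0.649% of its normalized total on them, the median was 1.61% and the highest was 2.17%. Older AV rats ranged from 0.807% to 2.03% with a median of 1.01%, AA rats from 0.866% to 1.68% with a median of 0.982%, and ADQ from 0.845% to 1.21% with a median of 0.972%. The groups overlapped in each comparison. The lowest YNG rats were V11 (0.649%), V10 (0.942%), V5 (1.14%) and V6 (1.28%), and above V5 lay 4567 (2.03%), 4572 (1.91%), 3989 (1.35%) and 4571 (1.24%) in AV, 3985 (1.68%) and 4036 (1.19%) in AA, and 3994 (1.21%) in ADQ. The large subunit had medians of 0.977% in YNG and 0.614% to 0.638% in the older groups, and the small subunit 0.632% and 0.348% to 0.370%. The per-rat log2 ratio of the large to the small subunit sum had YNG, AV, AA and ADQ medians of 0.70, 0.77, 0.86 and 0.81, and ranges from 0.58 to 1.09, from 0.52 to 1.24, from 0.71 to 1.22 and from 0.73 to 1.11 that overlapped widely.

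**Figure D1:**
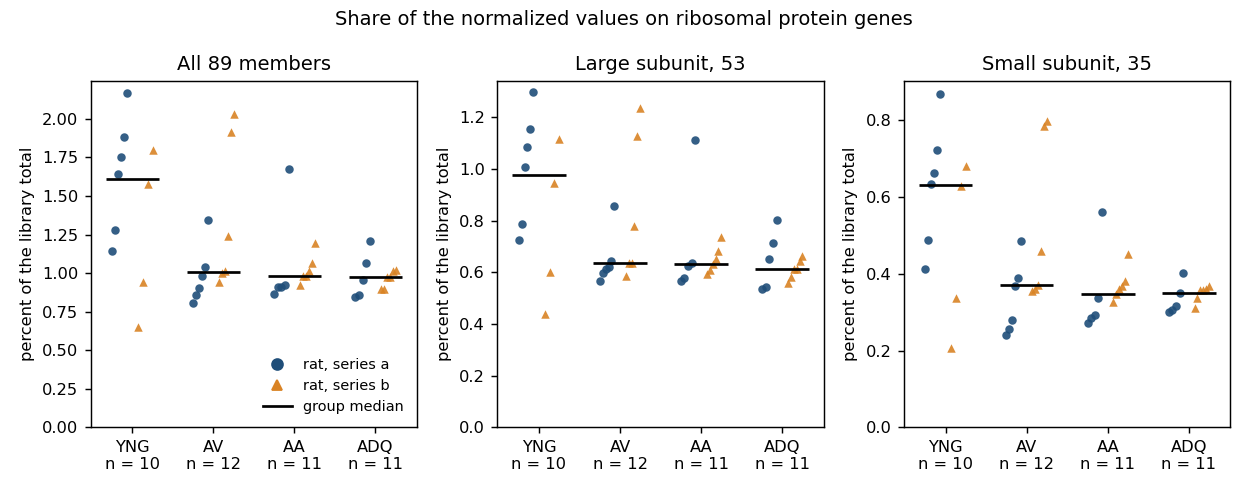
Percent of each rat's normalized total on all 89 members, on the 53 large subunit members and on the 35 small subunit members, by group. Circles are rats of series a, triangles rats of series b (a split by rat number) and lines group medians. The YNG median of 1.61% lies above the older medians of 0.972% to 1.01%, and 2 AV rats of series b and 1 AA rat of series a lie above the YNG median.

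Rats were split by number into 2 series, which the labels do not call a batch. Series a holds 22 rats (V1 to V6 and 3890 to 4011) and series b 22 rats (V9 to V12 and 4031 to 4572), and each holds rats of all 4 groups. Series b is not a single run, since its AV rats are numbered 4566 to 4572 and its AA and ADQ rats 4031 to 4110. Within series b the AV group therefore cannot be told apart from its run of numbers. They stood apart in the most abundant gene of the table, AABR07000398.1, which in series a took between 0.422% and 1.60% of the total and in series b between 1.71% and 11.1%. Because of this, values are also given within each series. The normalized totals, which the authors' scaling did not make equal, ran from 15291720 to 20579982 in YNG rats and were highest in V9 (20579982, 1.58% on the members), 4572 (18998183, 1.91%) and V1 (18623016, 1.88%).

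Against YNG, 37 of 89 ribosomal protein genes were lower in AV at an unadjusted p of 0.05 in limma, where 10.7% of all 15598 genes tested were lower. The other 52 did not pass. The study applied the same p cutoff in DESeq2, so these counts are not its own calls. In AA 65 members were lower (14.1% of all genes) and in ADQ 69 (14.6% of all genes). With all rats, 0 members were higher at this threshold in any of the 3 comparisons, where 10.6%, 12.6% and 13.5% of all genes were higher. After Benjamini-Hochberg adjustment over all genes, the AV, AA and ADQ comparisons kept 0, 20 and 35 members below 0.05, where 0.539%, 2.31% and 3.96% of all genes were lower. These adjusted counts rested on single rats: with 1 rat left out they ran from 0 to 25 in AV, from 0 to 62 in AA and from 1 to 68 in ADQ, each highest without V11, and 0 members were left in AA without any 1 of 3988, V1, V2, V4, V9 and V12. The adjusted p of single members given here have the same limit. With series as a covariate the adjusted counts were 5, 40 and 45 in AV, AA and ADQ. Shares of all genes are not given for that covariate or for rats left out. The median log2 change of the members was -0.44, -0.59 and -0.62 for AV, AA and ADQ, beside medians over all genes of -0.00, 0.00 and 0.01. The AV count rested on single rats: it was 23 without V2, 24 without V9, 58 without V10, 60 without 4567, 62 without 4572 and 65 without V11, and it was 0 among the rats of series b alone. By sign alone, 86, 84 and 83 of the 89 members lay below 0. These comparisons share their YNG rats, so they do not count as separate evidence.

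The counts were split by subunit, beside the same 10.7%, 14.1% and 14.6% of all genes, and the difference between the subunits was not tested. Of the 53 large subunit members 24, 41 and 45 were lower, with median log2 changes of -0.41, -0.54 and -0.60. Of the 35 small subunit members 13, 24 and 24 were lower, with medians of -0.47, -0.65 and -0.68. In all, 35 members were lower in each of the 3 comparisons, 30 in 2 of them, 6 in 1 and 18 in none, where 6.33%, 5.94%, 8.58% and 79.2% of all genes fell in these classes.

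**Figure D2:**
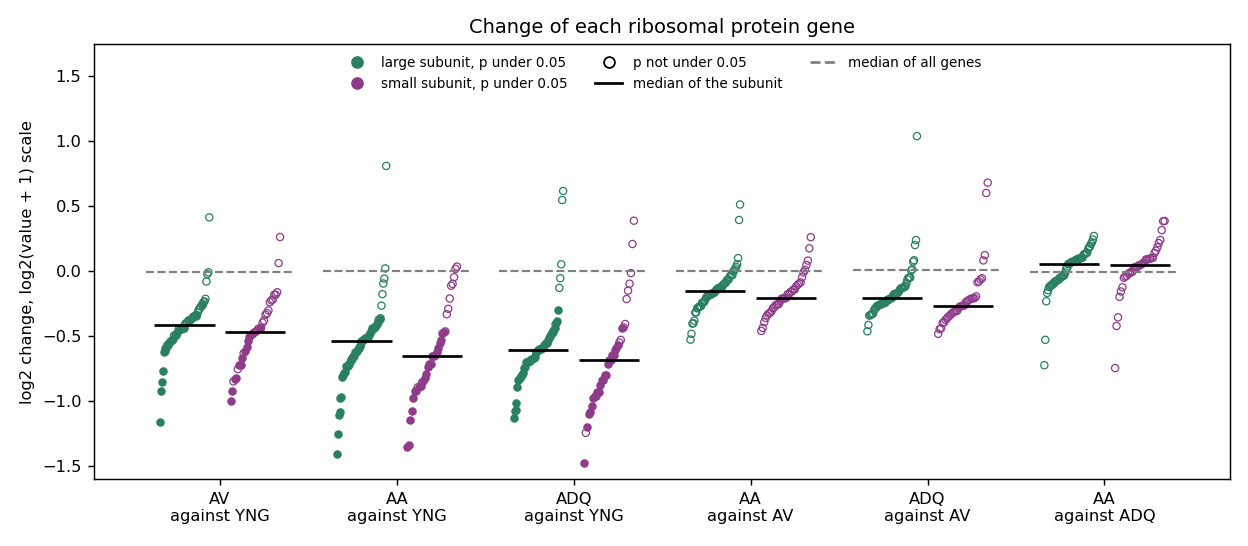
Log2 change of each large and small subunit member in the 6 comparisons, on the log2(value + 1) scale. Filled points have an unadjusted limma p under 0.05, open points do not, solid lines are subunit medians and dashed lines the median of all genes; filled points occur only in the 3 comparisons with YNG, all below 0.

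With all rats in the fit, no member passed the threshold between older groups, while within series b some did, as given with the series. Against AV, 0 of 89 members passed an unadjusted p of 0.05 in limma in AA (3.10% of all genes were lower and 1.40% higher) and 0 in ADQ (5.90% lower and 3.42% higher), and 0 differed between AA and ADQ (2.40% lower in AA and 2.13% higher). The smallest unadjusted limma p of any member was 0.119, 0.0879 and 0.117. The members' median log2 changes in the same order were -0.16, -0.22 and 0.05. Below 0 lay 75, 77 and 37 of the 89 members.

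Within the series the comparisons with YNG came apart. In series a (6 YNG, 6 AV, 5 AA and 5 ADQ rats), 68, 61 and 67 members were lower in AV, AA and ADQ, where 18.3%, 16.1% and 15.1% of all genes were lower, with medians of -0.81, -0.84 and -0.82. In series b (4 YNG rats and 6 of each older group), 0, 8 and 5 were lower, where 2.54%, 5.17% and 2.57% of all genes were lower, with medians of 0.08, -0.31 and -0.36. By sign, 84, 81 and 81 members lay below 0 in series a and 31, 78 and 80 in series b, so that 58 lay above 0 in AV there. The exceptions in the other direction were Rpl35a, higher in AA in series a (log2 2.09), and Rps6, higher in AV in series b (log2 1.10), both chosen after their values were seen. Tested as an interaction in limma, the change from YNG to AV was more negative in series a for 51 members and more positive for 0 (13.4% of all genes were more negative), and 14 of them had an adjusted p below 0.05 (4.47% of all genes did, in either direction). For AA the interaction called 24 members more negative and 1, Rpl35a, more positive, and for ADQ 16 and 1, Rpl7l1, both named after their values were seen, where 9.96% and 5.71% of all genes were more negative. After adjustment 2 of these members remained for AA and 0 for ADQ (1.80% and 0.0513% of all genes, in either direction). In either direction the interaction called 21.8%, 17.3% and 8.89% of all genes for AV, AA and ADQ. Among the older groups, 6 members in AA and 17 in ADQ were lower than in AV in series b (2.61% and 4.75% of all genes) and 0 and 0 in series a (2.29% and 3.85%), with medians of -0.38 and -0.44 against 0.038 and 0.022. In series b these comparisons with AV also compare separate runs of rat numbers, and the 2 cannot be told apart. Of the AA and ADQ comparison, Rps15al4, chosen after its values were seen, was higher in AA in series a.

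**Figure D3:**
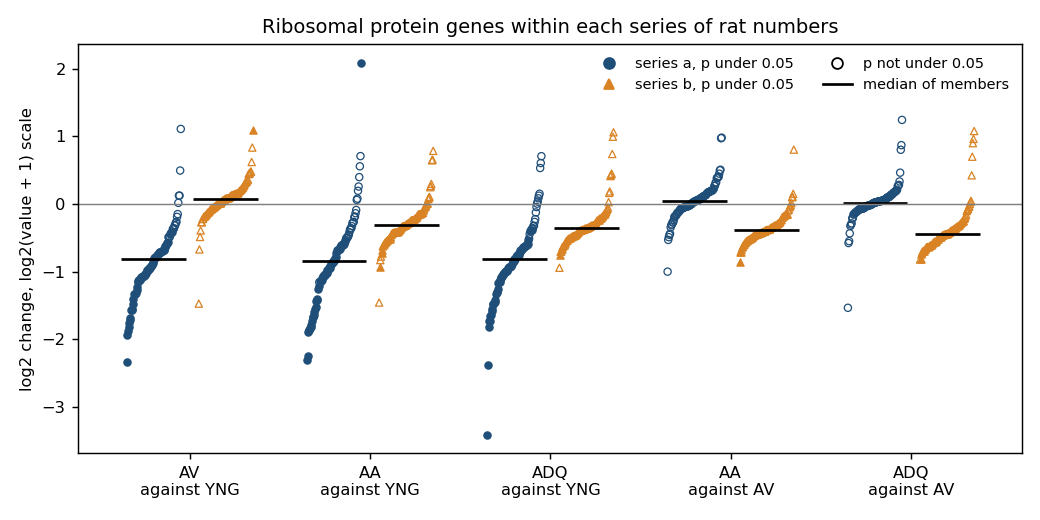
Log2 change of each of the 89 members fitted within series a (circles) and within series b (triangles), on the log2(value + 1) scale, for 5 comparisons. Lines are medians of the members and filled points have an unadjusted limma p under 0.05; against YNG the AV members have a median of -0.81 in series a and 0.08 in series b, and against AV the ADQ members have 0.02 and -0.44.

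The fit also depended on the normalized total of the library. With that total as a covariate, 1, 2 and 4 members were lower in AV, AA and ADQ (4.02%, 3.44% and 3.21% of all genes), and the medians were -0.08, -0.11 and -0.19. The members called then were Rplp0l1 in AV, Rps24 and Rpl21 in AA, and Rpl34, Rpl3, Rpl41 and Rps21 in ADQ, with Rps4y2 higher in ADQ, a list chosen after its values were seen. Median totals were higher in YNG than in the older groups, so the part of age and the part of the library total cannot be told apart here.

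Among single members, Rpl34, a large subunit protein, had 1 of the 3 smallest p in each comparison with YNG. Its normalized value was 546 in the lowest YNG rat, 1457 at the median and 2154 in the highest, against 400.4, 687 and 2525 in AV, 415, 697 and 953 in AA, and 402, 592 and 846 in ADQ. All groups overlapped, through 2 low YNG rats and 2 high AV rats. The log2 change was -0.77 ± 0.24, -0.98 ± 0.24 and -1.06 ± 0.24 (SE) for AV, AA and ADQ, with limma adjusted p of 0.0714, 0.0305 and 0.0158. Within series a its highest AV rat (652) and highest ADQ rat (592) lay below its lowest YNG rat (1011), while in series b the 4 YNG rats spanned 546 to 2084 and the AV rats 722 to 2525. No member had every older rat below every YNG rat in AV, AA or ADQ, as was so for 0.00641%, 0.0128% and 0.0192% of all genes. Within series a this held for 7, 18 and 27 members (3.25%, 2.97% and 4.10% of all genes), Rpl34 in each, and within series b for 0, 0 and 0 (0.648%, 1.04% and 0.571%). The AV change of Rpl34 within series b was 0.035, and the interaction of that change with series was -1.52 ± 0.39 (limma adjusted p = 0.0242).

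Rpl3, which lies near the peptidyl transferase center, had YNG values of 6762, 15500.2 and 20364 (lowest, median and highest), AA values of 5977, 7156 and 13053 and ADQ values of 6091, 7149 and 10577. It fell by 0.81 on the log2 scale in AA (SE 0.20, limma adjusted p = 0.0256) and by 0.80 in ADQ (adjusted p = 0.0191). In AV its median was 7486 and its log2 change -0.59 (adjusted p = 0.0886). The groups overlapped, with the highest AV rat (21203) above the highest YNG rat. Rps24, a small subunit protein needed to process the precursor of the small subunit RNA, had medians of 258 in YNG and 96.3, 104 and 102 in the older groups. Its log2 changes were -0.92, -1.35 and -1.20 for AV, AA and ADQ (SE 0.33 each, limma adjusted p = 0.108, 0.0271 and 0.0271). Rpl41, a peptide of very few residues, had medians of 5552 in YNG and 2573 to 2735 in the older groups, and its log2 change in ADQ was -0.83 ± 0.20 (limma adjusted p = 0.0193). Rpl24, a large subunit protein at the bridge to the small subunit, had medians of 1586 in YNG and 799 in AV, where its log2 change was -0.56 ± 0.18 (limma adjusted p = 0.0836).

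**Figure D4:**
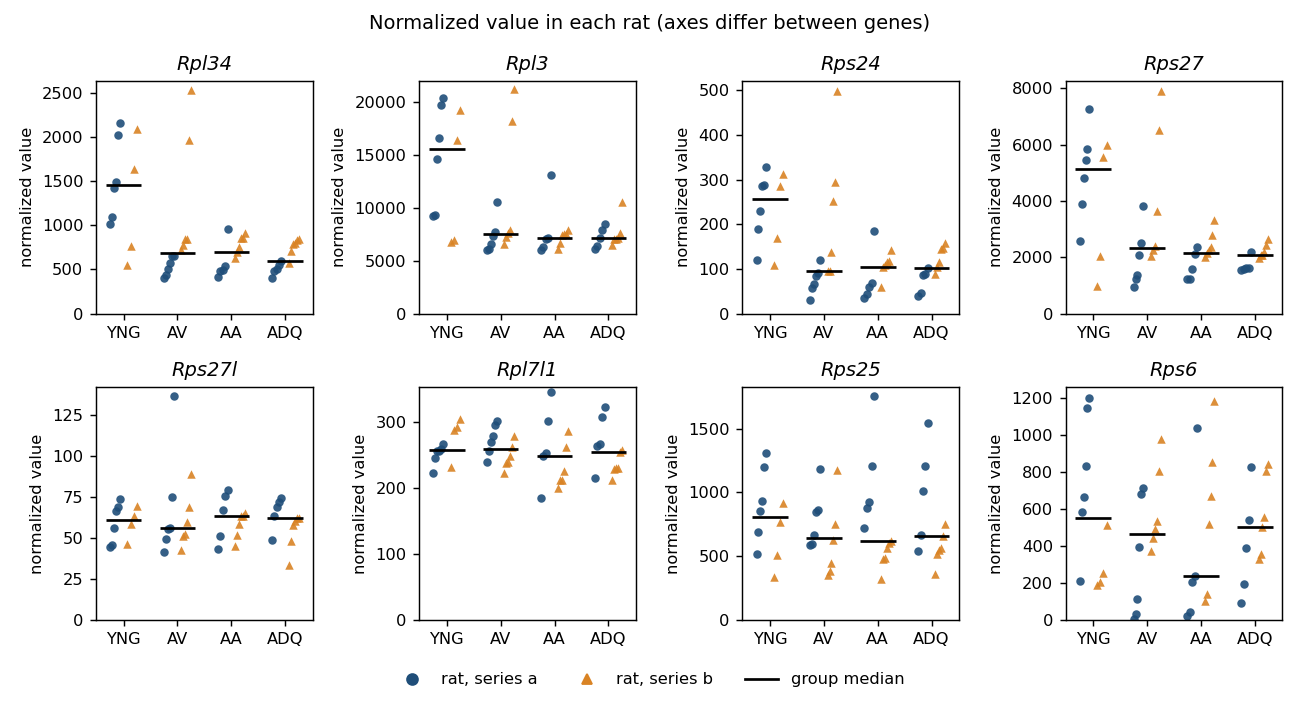
Normalized value in each rat for 8 members, with a separate linear axis from 0 for each gene. Circles are series a, triangles series b and lines group medians; Rpl34, Rpl3, Rps24 and Rps27 have YNG medians above the older medians, Rps27l and Rpl7l1 have level medians, and Rps6 spans 6.83 to 1198 over the rats.

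The stalk that recruits elongation factors is made of Rplp0 with Rplp1 and Rplp2. Rplp0 had medians of 13699 in YNG and 8394, 8261 and 7644 in AV, AA and ADQ, and log2 changes of -0.34, -0.46 and -0.59, of which those in AA and ADQ passed the unadjusted threshold (limma adjusted p = 0.129 and 0.0528). Rplp1 had medians of 12992 in YNG and 8997, 9594 and 7930 in AV, AA and ADQ. With all rats it passed only in ADQ (log2 -0.62 ± 0.21, limma adjusted p = 0.0543). Within series a every AV rat and every ADQ rat lay below every YNG rat in Rplp1. The interaction of its AV change with series was -1.47 ± 0.35 (limma adjusted p = 0.0144). Rplp2 was at low values, 55.5 at the YNG median and 26.7, 36.1 and 30.1 in AV, AA and ADQ, and passed in AV and ADQ. Within series b its AV change was 0.12 and its AA change 0.10, and Rplp1 had 0.028 in ADQ. Leaving out single rats ended the call of Rplp2 in AV for 13 of the 44 rats, with the highest p without 4010 (p = 0.0939 in limma).

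Rpl5 and Rpl11 travel with the 5S RNA and, when free, bind Mdm2, the ligase that holds p53 down. Rpl5 had medians of 4076 in YNG and 2612, 2485 and 2717 in AV, AA and ADQ, and log2 changes of -0.43, -0.61 and -0.56 (SE 0.17 each, limma adjusted p = 0.132, 0.0406 and 0.0367). Rpl11 had medians of 2773, 1753, 1602 and 1572 in the same order, and log2 changes of -0.44, -0.62 and -0.55 (limma adjusted p = 0.181, 0.0556 and 0.0668). The pair fell together, each at the unadjusted threshold in all 3 comparisons. Without rat 4009, or any of 5 others, the AV change of Rpl11 no longer passed (highest p = 0.0754).

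On the small subunit, Rps3 and Rps2 lie at the path by which messenger RNA enters. Rps3 had medians of 7408 in YNG and 3791, 3799.85 and 3551 in AV, AA and ADQ, and Rps2 had 1386, 845, 933 and 716. Rps3 was lower in all 3 comparisons (log2 -0.50, -0.62 and -0.72; limma adjusted p = 0.1498, 0.0647 and 0.0321), and Rps2 in AA and ADQ (log2 -0.65 and -0.83; limma adjusted p = 0.0848 and 0.0313). Within series a every AV rat lay below every YNG rat in Rps2. The interaction of the AV change of Rps2 with series was -1.46 (limma adjusted p = 0.0280). Rpsa, which is also a laminin receptor at the cell surface, fell from a YNG median of 10409 to 4671, 4764 and 4615, with log2 changes of -0.53, -0.71 and -0.80 (limma adjusted p = 0.124, 0.0453 and 0.0213). Rps27a, made as a fusion with ubiquitin, had a YNG median of 4070.3 and older medians of 2506 to 2796.5, with log2 changes of -0.22, -0.47 and -0.44, and passed in AA and ADQ (limma adjusted p = 0.101 and 0.115). Rpl39, which lines the exit tunnel, fell in all 3 comparisons (log2 -0.44, -0.53 and -0.60; limma adjusted p = 0.153, 0.0696 and 0.0402). Within series b the AV changes of Rps3 (0.18), Rpsa (0.0046) and Rpl39 (0.081) and the AA change of Rpl39 (0.0025) were not below 0, and the interaction of the AV change of Rps3 with series was -1.25 (limma adjusted p = 0.0470). Rpl10a, a large subunit protein at the L1 stalk, fell in AA and ADQ (log2 -0.41 and -0.30; limma adjusted p = 0.0640 and 0.1402) and had -0.21 in AV.

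Some members did not pass in any comparison with YNG, 18 in all. Rps25, a small subunit protein used by viral internal entry sites, had medians of 811, 645, 615 and 661 in YNG, AV, AA and ADQ and log2 changes of -0.18, -0.10 and -0.09 (SE 0.25 each). Rps6, the subunit phosphorylated by S6 kinases downstream of mTOR, ranged from 188 to 1198 in YNG, 6.83 to 980.1 in AV, 19.97 to 1184 in AA and 92.6 to 841 in ADQ. With all rats in the fit, its log2 changes of -0.75, -0.89 and -0.15 had SE of 0.65, 0.67 and 0.67 and did not pass. Its AV change had opposite signs in the series. It was -2.33 within series a, the lowest of any member there, and 1.10 within series b. The AV change with all rats joins these opposite changes. The groups overlapped over nearly their whole ranges. The members with the largest p over these comparisons were Rps19bp1, Rps27l and Rpl10l, whose log2 changes lay between -0.17 and 0.06.

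The spread between rats was wide for members as a class. Among members with a mean of at least 100, the median SD within groups was 0.51 on the log2 scale, against 0.26 over all 10762 genes with such a mean. The SD passed 1 for 6 members, among them 2 of the 4 Rpl21 identifiers, Rps6, Rps15al4 and Rpl35a, named here after their values were seen. Rps15al4 ran from 6.25 in 4005 to 1131 in 4567. Ribosomal protein genes have many near-identical processed pseudogenes, and the authors' counting could split reads among such copies, so the values of these members are uncertain. The 2 identifiers named Rpl7a differed by less than 5% in 43 of 44 rats and cannot be taken as separate measurements. The 5 symbols carried by more than 1 member, Rpl21, Rpl7a, Rpl32, Rps10 and Rps4x, account for 12 members.

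Paralog pairs were compared by the log2 ratio of the 2 partners within each rat, a quantity that the scaling of a library leaves nearly untouched. There were 9 pairs and 6 comparisons, so 54 tests (two-sided permutation of group labels, 100000 resamples, adjusted over all 54), of which 9 had an unadjusted p below 0.05 and 0 an adjusted p below 0.05. Rps27 and Rps27l, a related gene that p53 activates, are 1 such pair. Rps27 had medians of 5139 in YNG and 2335, 2168 and 2077 in AV, AA and ADQ, while Rps27l had 61.1, then 55.8, 63.2 and 61.996. The ratio of Rps27l to Rps27 was higher than in YNG by log2 0.68 ± 0.39, 0.94 ± 0.34 and 0.96 ± 0.34 (SE) for AV, AA and ADQ (adjusted permutation p = 0.322, 0.0950 and 0.0950). Rps18l1 had a YNG median of 10064 and older medians of 5680, 5136 and 4771, while Rps18 had 262, 229, 263 and 226. The standard gene Rps18 thus had a mean of 246 over the rats and Rps18l1 a mean of 6019. Reads could have been split among near-identical copies in this pair and in the others, which was not tested. The ratios are therefore uncertain as measures of the 2 transcripts. The ratio of Rps18l1 to Rps18 was lower by log2 0.56, 0.86 and 0.75 in AV, AA and ADQ (adjusted permutation p = 0.314, 0.0698 and 0.0698). Rplp0l1, whose values lay between 2.10 and 95.5, had the smallest limma p of any member in AV (log2 -1.16 ± 0.34, adjusted p = 0.0529), and its ratio to Rplp0 was lower by log2 0.82 in AV (adjusted permutation p = 0.0698). The ratio of Rps4y2 to Rps4x was higher by log2 1.03 ± 0.32 in ADQ (adjusted permutation p = 0.0698). Rpl7l1, which works in ribosome assembly, had medians of 257, 258, 248 and 255, and its ratio to Rpl7 was higher by log2 0.52, 0.42 and 0.52 (adjusted permutation p = 0.309, 0.329 and 0.304). The pairs Rpl10 and Rpl10l, Rpl3 and Rpl3l, Rpl36a and Rpl36al, and Rps10 and Rps10l1 had adjusted p of 0.322 or more against YNG. Of these, Rpl10l and Rpl3l, forms known from testis and from muscle, were at values of at most 34.4. Within series a, 12 tests of 5 pairs passed the adjusted threshold, all against YNG, and in series b 0 did. There the AV ratio turned sign for Rps27l over Rps27 (-0.32), Rps18l1 over Rps18 (0.11), Rps4y2 over Rps4x (-0.067, and -0.17 in AA) and Rpl36al over Rpl36a (0.049), and in AV Rps27 itself had a log2 change of 0.32 and Rps18l1 of 0.23.

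Members with and without the pyrimidine motif were counted separately, where 10.7%, 14.1% and 14.6% of all genes were lower in AV, AA and ADQ. Of the 30 members with a single identifier and CTCTT or CTTTC in the start window, 12, 25 and 26 were lower in AV, AA and ADQ, with median log2 changes of -0.44, -0.63 and -0.69. Of the 28 without either motif, 13, 19 and 20 were lower, with medians of -0.44, -0.58 and -0.57. The difference between these groups of genes was not tested.

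Ribosomal proteins that the symbol rule leaves out had values in the same direction. Fau, a fusion that yields the small subunit protein eS30, was lower in all 3 groups (log2 -0.53, -0.69 and -0.84; limma adjusted p = 0.167, 0.0648 and 0.0266). Rack1, a scaffold for signaling on the small subunit, has 2 identifiers, and both were lower in AV and ADQ, with log2 changes in ADQ of -0.88 and -0.45 (limma adjusted p = 0.0406 and 0.0338). The identifier with -0.88 lay near the minimum, with a YNG median of 7.32, against 5096 for the other.

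Lists of translation genes other than these proteins outside the rule had medians nearer to 0 than the members, a difference that was not tested. Each count is read beside the 10.7%, 14.1% and 14.6% of all genes that were lower. Of 18 elongation and termination genes 8, 12 and 10 were lower and 0, 0 and 1 (Eif5a2) higher, with median log2 changes of -0.22, -0.25 and -0.23. Eef1g, a subunit of the factor that reloads eEF1A, fell by 0.65 on the log2 scale in AA (limma adjusted p = 0.0255), and Eef2, the translocase, by 0.44 in ADQ (limma adjusted p = 0.0191). Of 42 initiation factor genes 14, 21 and 18 were lower and 0 higher, with medians of -0.20, -0.26 and -0.23. Eif3i, a subunit of the factor that binds the small subunit, changed by -0.66 in AA and -0.63 in ADQ, and Eif2b5, the catalytic subunit of the exchange factor for eIF2, by -0.31, -0.36 and -0.30 in AV, AA and ADQ (limma adjusted p = 0.0275, 0.0225 and 0.0250). Of 17 nascent chain factors 3, 5 and 6 were lower. Ssr2, a part of the translocon, changed by -0.42, -0.38 and -0.41, and Naca, which shields new chains, by -0.29, -0.42 and -0.38 (limma adjusted p = 0.197, 0.0618 and 0.0740).

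Assembly genes stayed closer to 0. Of 68 genes of ribosome assembly and the nucleolus 10 were lower and 2 higher in AV, 17 and 2 in AA, and 12 and 5 in ADQ, with medians of -0.10, -0.10 and -0.09. Pes1, which processes the large subunit RNA, changed by -0.47 in ADQ (limma adjusted p = 0.0195), and Tsr3, which modifies the small subunit RNA, by -0.51 (limma adjusted p = 0.0208). Of 22 regulators 4 were lower and 1 higher in AV, 3 and 2 in AA, and 2 and 2 in ADQ, with medians of 0.01, 0.02 and 0.07. Larp1, which holds pyrimidine-tract messages, changed by -0.30, -0.36 and -0.34 (limma adjusted p = 0.172, 0.0769 and 0.0804), and Mdm2 rose by log2 0.24 in ADQ (limma adjusted p = 0.0377). Of 72 mitochondrial ribosomal protein genes, the subunits of the separate ribosome inside mitochondria, 23, 26 and 27 were lower and 1 in each was higher, with medians of -0.17, -0.18 and -0.18. Mrpl16 changed by -0.45 in AV (limma adjusted p = 0.0236), and Mrpl51 rose by log2 0.48 in ADQ (limma adjusted p = 0.00558).

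**Figure D5:**
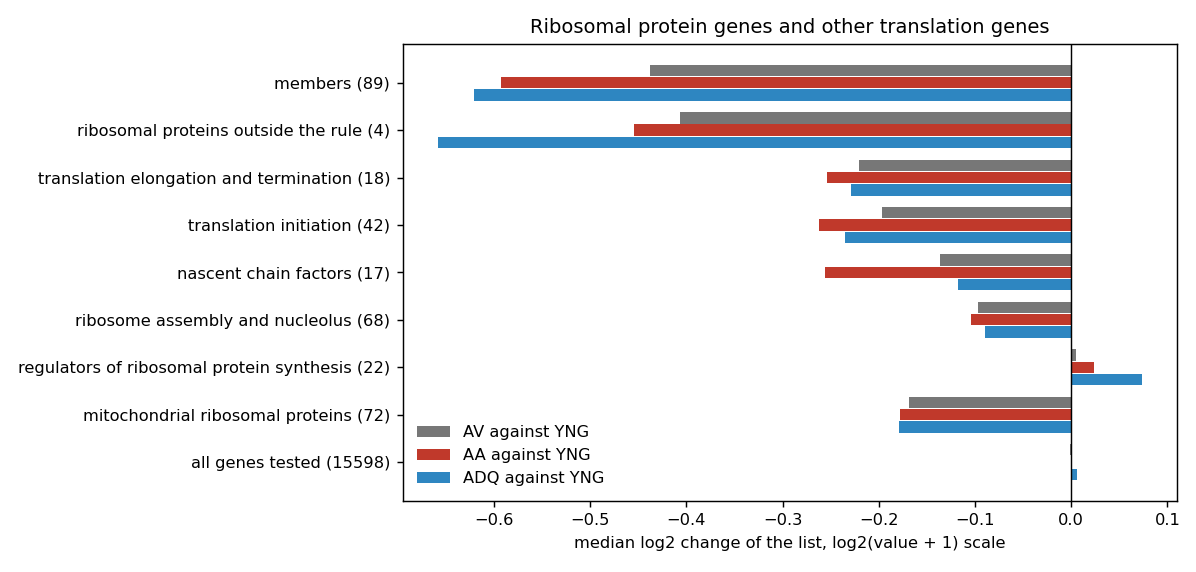
Median log2 change against YNG, on the log2(value + 1) scale, of the 89 members, of 7 lists of other translation genes and of all 15598 genes tested, with the number of genes tested in brackets. Bars start at 0; the members have -0.44, -0.59 and -0.62 in AV, AA and ADQ, the elongation and initiation lists lie between -0.20 and -0.26, and all genes lie at 0.01 or nearer to 0.

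Cell type markers and gene size moved with the groups too, and their part in the result was not tested. The summed granule cell markers (most abundant C1ql2) had medians of 11964 in YNG and 9748, 10488 and 9653 in AV, AA and ADQ, and of the 4 tested 1, 2 and 2 were lower. Of 5 oligodendrocyte markers (most abundant Mbp, summed medians of 64819.9, 75312, 66546 and 60182) 4, 3 and 1 were higher. Of 3 endothelial markers in the table (most abundant Cldn5, summed medians of 1705, 2671, 2074 and 2012) 3, 1 and 1 were higher. Among astrocyte markers (most abundant Gfap) 2 were higher in AV and 1 lower in ADQ, among microglial markers (most abundant Csf1r) 1 was higher in AV and 1 lower in ADQ, and among meningeal markers (most abundant Igf2) 1 was lower in AA. Markers of CA1, of CA3 and mossy cells, of choroid plexus and of red blood cells had 0 calls against YNG in limma. Single rats stood apart, however. Summed CA1 markers ran from 2377 to 17206 in YNG and from 1835 to 42737 in AA. The lowest granule cell sum was 8959 in YNG and 2669 in AA. Against AV, ADQ had 4 of 5 microglial, 3 of 3 endothelial, 3 of 5 oligodendrocyte and 2 of 2 red blood cell markers lower, with Gfap of the astrocyte and Clic6 of the choroid plexus markers. Lower in AA than in AV were Gfap, the microglial Cx3cr1 and Csf1r, the endothelial Slco1a4 and the meningeal Slc6a13. Calb2, the only 1 to pass of 4 genes listed for CA3 and mossy cells, was higher in AA. Members are short genes, with a median RefSeq span of 3.25 kb for the 87 matched, against 25.3 kb for 13348 genes matched. Genes under 5 kb that are not members had median log2 changes of -0.07, -0.08 and -0.13 in AV, AA and ADQ, and members under 5 kb had -0.44, -0.59 and -0.62. Genes over 100 kb that are not members had 0.06, 0.07 and 0.12.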

How the data were processed

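The authors sequenced poly(A) RNA of 1 dentate gyrus per rat on an Ion instrument. Per the submitters' processing notes, reads were aligned to rn6 with STAR 2.5.3a in Partek Flow and DESeq2 was named. As deposited by the authors, values are signal: estimated reads per row divided by a median ratio size factor, 24694 rows. Here rows were summed per gene identifier, 15598 genes with a mean of at least 5 were kept, log2(value + 1) was taken, and limma 3.58.1 in R 4.3.3 fitted the 4 groups in 1 model (empirical Bayes with trend, two-sided); simulated data were used to test this step. The arm of older rats came from the deposited attributes. Replicates are rats. Read depth per library is unknown, since totals are normalized. Genes were named by their role, by paralogy and by the smallest and largest p. Members and lists were chosen with earlier results of these data known. Alternatives changed the pseudocount, filter, scaling, rows, covariates and rats. Python 3.11.15 drew the figures. Values of some single genes are not reported here.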

Additional observations from a re-analysis of the deposited data

Results flagged for a closer look

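The change from YNG differed between the 2 series of rat numbers, by an interaction term in limma at an unadjusted p of 0.05, for 51 of 89 ribosomal protein genes in AV, for 25 in AA and for 17 in ADQ, where it was called for 21.8%, 17.3% and 8.89% of all genes. After adjustment over all genes 14, 2 and 0 members remained. Series b holds 4 YNG rats, of which V10 and V11 had 0.942% and 0.649% of the total on these genes and V9 and V12 had 1.58% and 1.80%. Of 40 YNG values tested for a rat far from the others, 0 passed Dixon's limit. The older groups hold more than 10 rats and were not tested in this way.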

How the results depend on the processing

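The unadjusted counts and the medians kept their side under pseudocount 0.5, a minimum mean of 20, no filter, upper quartile or library total scaling, the row with the highest mean, a series covariate and, chosen after seeing the data, without 4 rats over 8% on the most abundant gene. The counts below an adjusted p of 0.05 moved more: beside 0, 20 and 35 in AV, AA and ADQ they were 5, 40 and 45 given a series covariate, 1, 48 and 52 without those 4 rats, 0, 11 and 30 with no filter, 0, 12 and 48 with only 2 groups in the fit, 52, 42 and 42 within series a, and 0, 0 and 0 within series b or given the library total. Members called in AV against YNG were 22 with only these groups in the fit, 68 within series a, 1 within series b and 1 when the library total was a covariate; in AA 8 within series b and 2 with the covariate; in ADQ 5 and 5. Against AV, AA had 6 within series b, and ADQ had 17 there and 1 with only these groups. AA against ADQ had 1 within series a. The cause was not tested. Above, shares of all genes that were lower stand beside the counts within series and given the library total. They are not given for the other alternatives or for single rats left out. For the adjusted counts, such shares are given with the main fit only, so these counts are not compared with all genes under alternatives. The median reversed for AV against YNG within series b (0.078) and, within series a, for AA (0.038) and ADQ (0.022) against AV. Paralog ratios passed within series a against YNG for Rpl36al over Rpl36a in AA (-0.81), Rplp0l1 over Rplp0 in AV (-1.11), AA (-1.02) and ADQ (-0.97), Rps18l1 over Rps18 (-1.17, -1.51 and -1.35), Rps27l over Rps27 (1.53, 1.60 and 1.63), and Rps4y2 over Rps4x in AV (1.25) and AA (1.34). Within series b 58 of 89 members lay above 0 in AV; of the named genes called there with all rats, those reversed were Rplp2 (0.12), Rpl34 (0.035), Rps27 (0.32), Rps3 (0.18), Rpsa (0.0046), Rpl36al (0.13), Rps18l1 (0.23), Rpl39 (0.081) and Rps10 ENSRNOG00000052141 (0.24), in AA Rpl39 (0.0025) and in ADQ Rplp1 (0.028); with the covariate, Rplp0 in AA (0.020). With single rats left out, AV calls ran from 23 (V2) to 65 (V11), with 24 without V9, 58 without V10, 60 without 4567 and 62 without 4572, AA calls from 57 to 71 and ADQ calls from 65 to 76; against AV, AA calls ran from 0 to 2 and ADQ calls from 0 to 4, and the AA against ADQ median from -0.025 (3985) to 0.080. Paralog ratios then ran from -0.92 to -0.70 for Rplp0l1 over Rplp0 in AV, from -0.98 to -0.77 in AA and from -0.86 to -0.67 in ADQ for Rps18l1 over Rps18, from 0.83 to 1.17 and from 0.86 to 1.196 for Rps27l over Rps27, and from 0.89 to 1.17 for Rps4y2 over Rps4x in ADQ. No paired analysis was possible because the replicate numbers only name rats.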
